A study of Danio rerio with 24 samples.

Results

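The transcripts described here are the 69 probe sets that read lower with TCDD than with vehicle at all 4 sampling times in the jaw of zebrafish larvae. A probe set is a group of short array probes that together measure one transcript. For each probe set the mean log2 intensity of the 3 vehicle arrays was subtracted from that of the 3 TCDD arrays at 1, 2, 4 and 12 h, and probe sets with a difference of -0.2 or lower at every time were kept. The rule was open to 8781 of the 15617 probe sets in the table. Array controls, probe sets with a mean log2 intensity under 4 and those of 2 identifiers, listed as cyp1a and sox9b, were set aside. The 69 members are 0.786% of the open probe sets, and the mirrored rule, for differences of 0.2 or higher at every time, found 88 probe sets, or 1.00%. The differences themselves chose the members, so their sign and size are a description and carry no test, and no p-value is given for a member. The annotation names 1 gene for 53 members, which come to 48 genes, and lists no gene for the other 16.

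RNA was measured on Affymetrix arrays in jaws of larvae of the AB strain, from which eyes and brain had been removed, with 10 jaws pooled for each array. For the TCDD groups larvae were treated for 1 h, from 96 h post fertilization, with 2,3,7,8-tetrachlorodibenzo-p-dioxin (TCDD) at 1 ng/ml, and for the vehicle groups with 0.1% DMSO, the solvent, over the same hour. Jaws were taken 1, 2, 4 and 12 h after the exposure began, at 97, 98, 100 and 108 h post fertilization, which gave 8 groups of 3 arrays and 24 arrays in all. The study's title ties activation of the aryl hydrocarbon receptor by TCDD to lower sox9b, a cartilage transcription factor, and to jaw malformation.

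TCDD is a dioxin that enters cells and binds the aryl hydrocarbon receptor, a transcription factor that then pairs with Arnt in the nucleus and switches on genes such as the cytochrome P450 1 family. Many other transcripts fall after activation of the receptor, some within hours, and the larval jaw is known as a sensitive organ. At the stage studied the jaw skeleton is mostly cartilage, in which chondrocytes divide, stack and lay down a matrix of collagen, proteoglycan and hyaluronan around them, beside skeletal muscle, blood vessels, loose connective tissue and skin.

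Several facts of the arrays bear on every value below. Cartilage markers, which define the labelled tissue, were bright on all arrays. Their summed intensity, members left out, was 28239 to 40443 in TCDD jaws and 42251 to 49082 in vehicle jaws at 1 h, and 32375 to 44564 in TCDD jaws and 43437 to 56173 in vehicle jaws at 2 h. At 4 h the sum was 36472 to 56119 in TCDD jaws and 39491 to 48726 in vehicle jaws, and at 12 h it was 23512 to 35486 in TCDD jaws and 21707 to 32191 in vehicle jaws. The sums did not overlap at 1 h and overlapped at the later times. In jaws, a bulk tissue, fewer cells of a type and less RNA per cell cannot be told apart. At each of 2 times, 1 TCDD array stood apart in the dap control, an RNA added to follow labelling along its length. Its 5′ minus 3′ difference was -3.10 in TCDD replicate 2 at 1 h, against -0.83 to -0.26 on the other arrays of that time, and -0.39 in TCDD replicate 3 at 12 h, against -3.48 to -2.80 on the others. The median intensity of an array was 21.9 to 23.8 at 1 h, 33.2 to 34.7 at 2 h, 25.7 to 27.8 at 4 h and 13.8 to 15.0 at 12 h. Each time thus had a scale of its own, and levels are compared only within a time, apart from a last set of values in vehicle jaws. Each value rests on 3 arrays a group, a number that limits its precision, and SDs and p-values cover only the variation among these pooled-jaw arrays.

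The members sat a little above the middle of the array, with a median mean log2 intensity of 6.53 against 6.34 over all open probe sets. Their median difference was -0.42 at 1 h, -0.43 at 2 h, -0.38 at 4 h and -0.46 at 12 h, while the median over all tested probe sets was -0.01, 0.02, 0.00 and -0.03. Taken one time at a time, differences of -0.2 or lower were common: 19.6% of the open probe sets had one at 1 h, 22.2% at 2 h, 19.8% at 4 h and 21.9% at 12 h. Only 20 of the 69 reached a 2-fold lower level at any time, 7 of them at 1 h, 4 at 2 h, 3 at 4 h and 12 at 12 h. At 1 h, without the TCDD array that stood apart, only dkk2 (-1.14) and Dr.10124.1.A1_at (-1.04) remained 2-fold lower. The lowest difference of all was -1.54 at 1 h (hapln1a, or -1.14, for dkk2, without the TCDD array that stood apart at that time), -1.34 at 2 h, -1.51 at 4 h and -1.51 at 12 h. The time of the lowest difference was spread over the course: 17 members were lowest at 1 h, 18 at 2 h, 13 at 4 h and 21 at 12 h.

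**Figure D1:**
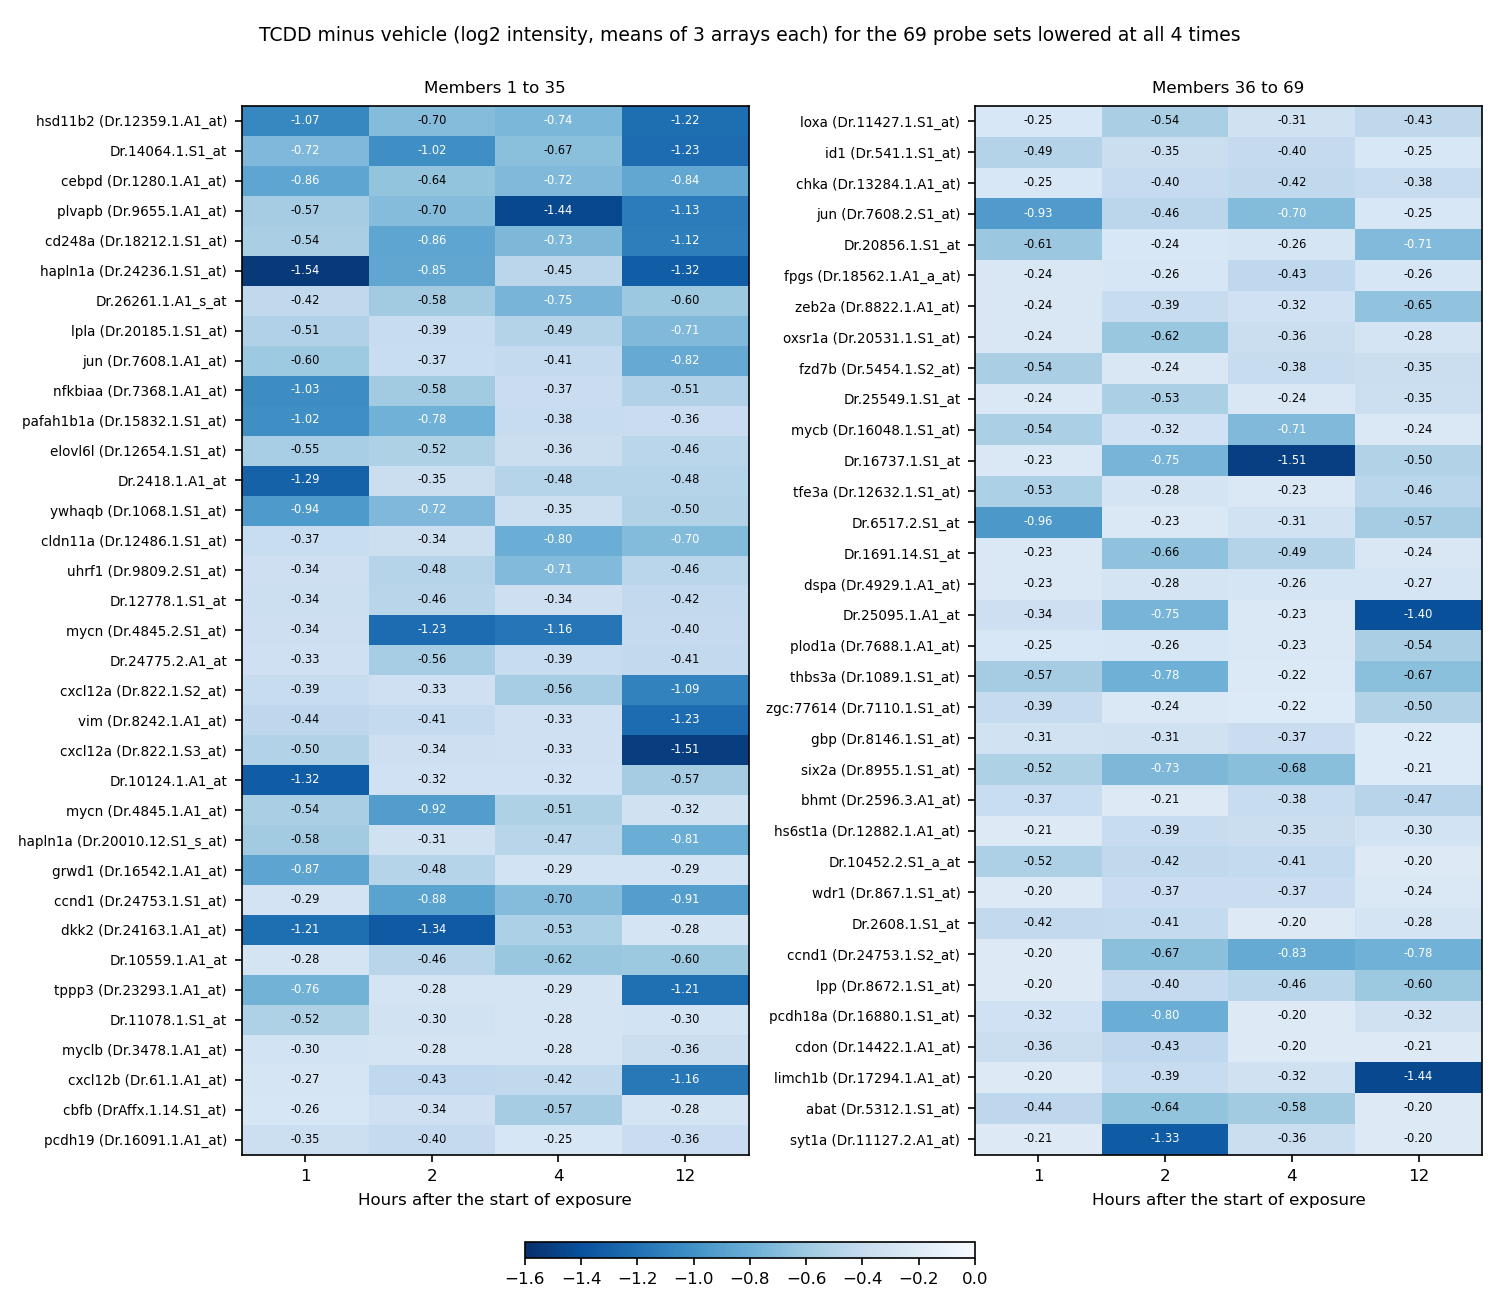
Colours give the TCDD minus vehicle difference in log2 intensity (means of 3 arrays each) at 1, 2, 4 and 12 h for the 69 members, in order of the largest of their 4 differences. Every cell is at or below -0.2 by the rule, and the darkest, at -1.54, is hapln1a at 1 h, a value of -0.69 without 1 TCDD array.

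All 3 TCDD arrays lay below all 3 vehicle arrays for 24 members at 1 h, 36 at 2 h, 19 at 4 h and 34 at 12 h. Of all open probe sets, 7.55% were without overlap in this direction at 1 h, 9.74% at 2 h, 3.86% at 4 h and 8.68% at 12 h. Because the rule used these contrasts, nothing is read from these shares. The groups were apart at every time for hsd11b2, cd248a and one of the mycn probe sets, and at no time for 10 members, among them elovl6l, grwd1, cbfb, dspa, bhmt and lpp. In a fit of limma over all probe sets, at a Benjamini-Hochberg adjusted p under 0.05, 0 members were called lower at 1 h, 1 at 2 h, 2 at 4 h and 11 at 12 h. The background of lower calls was 0.0129% at 1 h, 0.00645% at 2 h, 0.142% at 4 h and 0.368% at 12 h. At an unadjusted p under 0.05 limma gave 20 members at 1 h, 16 at 2 h, 18 at 4 h and 26 at 12 h. At that level 3.99%, 2.77%, 2.50% and 4.07% of all tested probe sets were lower. At the adjusted p under 0.05, 57 of the members passed at no time. The call at 2 h was pcdh18a, those at 4 h were plvapb and ccnd1, and those at 12 h were plvapb, cd248a, both cxcl12a probe sets, cxcl12b, both ccnd1 probe sets, zeb2a, limch1b and the unnamed Dr.14064.1.S1_at and Dr.25095.1.A1_at. When only the 6 arrays of a time were fitted, no member was called at any time. The rule used the contrasts that limma fitted, so the calls of members are a description and nothing is read from them. The members also varied more between replicates than other probe sets, with a median residual SD of 0.361 against 0.255 over the open probe sets.

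Within each array the members can be set against the rest of the same array. At 1 h the members' median lay 0.32, 0.13 and 0.53 above the median of the open probe sets in TCDD jaws and 0.81, 0.86 and 0.86 above it in vehicle jaws. At 12 h it lay at -0.68, -0.69 and -0.37 in TCDD jaws and at 0.16, 0.10 and 0.21 in vehicle jaws. At 2 h the values were -0.32, -0.20 and -0.15 in TCDD jaws and 0.34, 0.32 and 0.24 in vehicle jaws, and at 4 h they were 0.30, -0.03 and -0.04 in TCDD jaws and 0.43, 0.42 and 0.73 in vehicle jaws. The arms were apart at each time, which the choice of members fixes. Within the TCDD arm at 4 h, replicate 1 stood nearer to vehicle than the other two did.

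**Figure D2:**
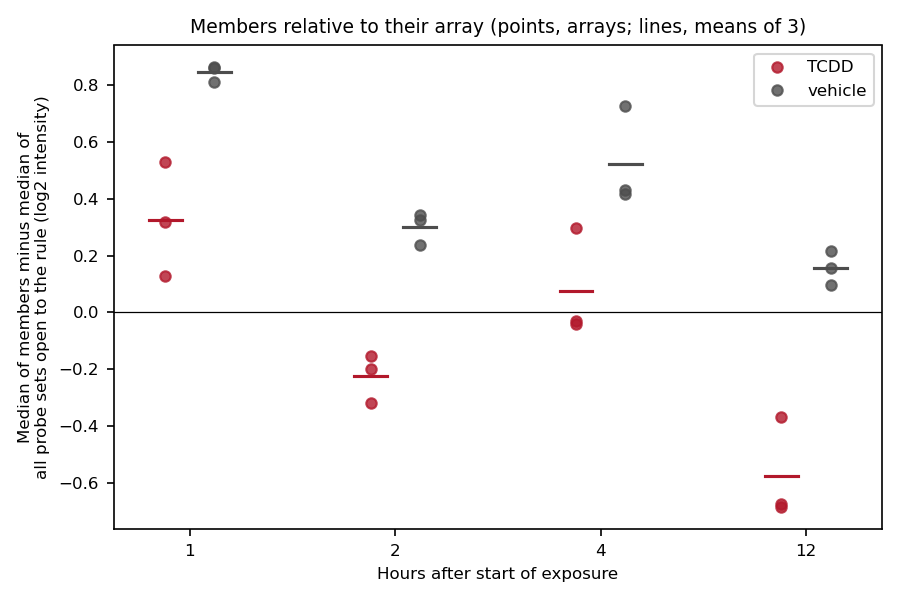
Each point is an array: the median log2 intensity of the 69 members minus that of the 8781 open probe sets, in TCDD (left) and vehicle (right) jaws, with lines at the means of 3 arrays. At 12 h the TCDD arrays lie between -0.69 and -0.37 and the vehicle arrays between 0.10 and 0.21.

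Secreted signals, their receptors and the GSK3-binding protein gbp came to 7 members from 6 genes, and 3 of the 7 were chemokine probe sets. cxcl12a and cxcl12b encode Cxcl12, a chemokine that guides migrating cells through the receptor Cxcr4 and is taken up by the scavenger receptor Ackr3. The cxcl12a probe set Dr.822.1.S3_at read 6.33, 6.51 and 6.51 in TCDD jaws at 12 h, against 7.64, 8.22 and 8.02 in vehicle jaws. At 1 h this cxcl12a probe set read 8.41, 8.47 and 8.73 in TCDD jaws and 9.09, 9.12 and 8.90 in vehicle jaws. Both times showed no overlap, but at 4 h one TCDD array, at 8.76, was above all 3 vehicle arrays at 8.56, 8.71 and 8.58. Its differences were -0.50 at 1 h, -0.34 at 2 h, -0.33 at 4 h and -1.51 at 12 h. The second cxcl12a probe set, Dr.822.1.S2_at, gave -0.39, -0.33, -0.56 and -1.09 at these times. cxcl12b, a separate gene on probe set Dr.61.1.A1_at, gave -0.27, -0.43, -0.42 and -1.16, with 7.16, 7.46 and 6.47 in TCDD jaws and 8.15, 8.02 and 8.38 in vehicle jaws at 12 h. All 3 chemokine probe sets thus had their lowest difference at 12 h, where the arms did not overlap.

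The chemokine's receptors were not members and moved the other way where they moved. They were looked up by name after the members were known. cxcr4b (Dr.6798.1.S1_at), the main Cxcl12 receptor, read 6.97, 6.42 and 6.93 in TCDD jaws and 4.73, 4.90 and 4.54 in vehicle jaws at 4 h. At 2 h cxcr4b read 7.37, 7.23 and 7.22 in TCDD jaws and 6.30, 5.69 and 5.79 in vehicle jaws, and at 12 h 6.66, 6.17 and 6.57 in TCDD jaws and 4.93, 4.79 and 4.68 in vehicle jaws. cxcr4b was higher in every TCDD array than in any vehicle array at these 3 times. The difference was 1.35 at 2 h, 2.05 at 4 h and 1.67 at 12 h (SE 0.16), with limma adjusted p of 0.00105, 1.42e-06 and 9.85e-06, while it was 0.03 at 1 h (adjusted p 0.995). Of 11 refits of limma, 3 ended the 2 h call of cxcr4b, with adjusted p up to 0.205, and none ended the calls at 4 and 12 h. ackr3b, the scavenger receptor, was 0.94 higher at 12 h (SE 0.20, limma adjusted p 0.0291), which was lost in 5 of the 11 refits (adjusted p from 0.00315 to 0.274), and read 0.38, 0.14 and 0.36 at 1, 2 and 4 h without passing. cxcr4a, the second copy of the receptor gene, gave 0.21, 0.16, 0.62 and 0.19 and passed at no time.

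The remaining members of this class belong to Wnt and Hedgehog signalling. dkk2 (Dr.24163.1.A1_at), a secreted Wnt modulator that binds the Lrp co-receptors, read 4.69, 4.49 and 5.22 in TCDD jaws at 2 h and 6.44, 5.74 and 6.25 in vehicle jaws. At 1 h dkk2 read 4.06, 3.75 and 3.85 in TCDD jaws, against 5.73, 5.11 and 4.46 in vehicle jaws. TCDD and vehicle were apart at both early times, and overlapped at 4 h and 12 h, where the dkk2 differences were -0.53 and -0.28 after -1.21 and -1.34. At 12 h the dkk2 difference rested on vehicle replicate 1, at 4.94, beside 3.92 and 3.92 in the other vehicle jaws and 3.86, 3.98 and 4.09 in TCDD jaws, and without replicate 1 it was 0.11. fzd7b, a Frizzled receptor for Wnt ligands, gave -0.54, -0.24, -0.38 and -0.35, and gbp, a GSK3-binding protein of the Wnt pathway, gave -0.31, -0.31, -0.37 and -0.22. A second fzd7b probe set, Dr.5454.1.S1_at, which was not a member, gave -0.34, -0.66, -0.86 and 0.65, so the fzd7b probe sets differed in sign at 12 h. cdon, a cell-surface co-receptor for Hedgehog ligands, stood at the edge of the rule with -0.36, -0.43, -0.20 and -0.21. Another cdon probe set above the level floor, Dr.14422.3.A1_x_at, was not a member and gave -0.14, -0.24, 0.08 and -0.19, opposite in sign at 4 h.

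Transcription factors and their inhibitors were the largest named class, with 13 members from 11 genes and median differences of -0.53 at 1 h, -0.39 at 2 h, -0.51 at 4 h and -0.36 at 12 h. cebpd (Dr.1280.1.A1_at), a C/EBP factor of acute-phase and stress responses, was the third in the order. At 1 h cebpd read 8.86, 8.50 and 8.41 in TCDD jaws and 10.38, 8.97 and 8.99 in vehicle jaws. At 2 h cebpd read 9.12, 9.21 and 8.08 in TCDD jaws and 9.97, 9.21 and 9.15 in vehicle jaws. For cebpd the arms separated at 1 h, with vehicle replicate 1 far above its group, and overlapped at 2 h. At 4 h cebpd read 8.63, 8.59 and 8.23 in TCDD jaws and 9.31, 9.13 and 9.16 in vehicle jaws. At 12 h cebpd read 6.78, 7.29 and 7.23 in TCDD jaws and 7.80, 7.81 and 8.23 in vehicle jaws. Both later times showed no overlap, and cebpd was 1.81-fold lower at 1 h, 1.56-fold at 2 h, 1.64-fold at 4 h and 1.80-fold at 12 h. The cebpd folds at 1 and 2 h rested in part on vehicle replicate 1, at 10.38 and 9.97, the highest array of each time. Of its relatives, cebpa, which drives fat and myeloid cell differentiation, gave -0.96, -0.05, -0.56 and -1.46 and passed the test at 12 h (SE 0.29, limma adjusted p 0.0199), which was lost in 6 of the 11 refits (adjusted p from 0.0101 to 0.342). cebpb gave -1.09, 0.14, -0.06 and -0.28 and passed at no time.

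jun encodes a subunit of AP-1, an immediate-early factor, and had both of its probe sets among the members. The jun probe set Dr.7608.1.A1_at averaged 8.40 ± 0.17 in TCDD jaws and 8.99 ± 0.41 in vehicle jaws at 1 h, and 7.17 ± 0.15 in TCDD jaws and 7.99 ± 0.35 in vehicle jaws at 12 h (SD, n = 3 each). The dimmer jun probe set, Dr.7608.2.S1_at, gave -0.93, -0.46, -0.70 and -0.25, against -0.60, -0.37, -0.41 and -0.82 for the brighter one. The order of the times thus differed between the probe sets of one gene. At 12 h, however, the dimmer one averaged 3.13 in TCDD jaws and 3.38 in vehicle jaws, both under the level floor of 4. Other genes of the AP-1 family were low at 1 h but passed the test at no time. At 1 h fosab gave -1.86, -1.89, -1.43 and -1.65 on its 4 probe sets (the last pair below the level floor). At that time atf3 gave -1.62, junba -1.34 and junbb -1.08. The SEs of these values were 0.48 to 0.90, and at 2 h the same probe sets gave -0.15 to 0.52. fosl2 gave -0.45, -0.63 and -0.23 at 1 h on its probe sets. nfkbiaa (Dr.7368.1.A1_at), an inhibitor of NF-kappaB that is itself induced by NF-kappaB, read 7.25, 6.61 and 7.57 in TCDD jaws and 9.01, 7.74 and 7.76 in vehicle jaws at 1 h, a difference of -1.03, which was -0.61 without vehicle replicate 1. The nfkbiaa differences at 2, 4 and 12 h were -0.58, -0.37 and -0.51, and its arms overlapped only at 2 h.

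The Myc family, growth-promoting transcription factors, supplied 4 members from 3 genes. The brighter mycn probe set, Dr.4845.1.A1_at, read 7.35, 7.22 and 7.26 in TCDD jaws and 7.74, 7.75 and 7.96 in vehicle jaws at 1 h. At 2 h this mycn probe set read 7.76, 8.03 and 7.29 in TCDD jaws and 9.03, 8.56 and 8.24 in vehicle jaws. At 4 h the mycn values were 7.38, 7.61 and 7.50 in TCDD jaws and 7.89, 8.22 and 7.93 in vehicle jaws. The mycn arms were apart at these times and, by a margin of hundredths, at 12 h, where TCDD jaws read 6.68, 6.89 and 6.85 and vehicle jaws 6.91, 7.36 and 7.09. The dimmer mycn probe set, Dr.4845.2.S1_at, was lowest at 2 and 4 h, with -1.23 and -1.16, and gave -0.34 and -0.40 at 1 and 12 h. At 12 h this probe set averaged 3.50 in TCDD jaws and 3.90 in vehicle jaws, both under the level floor of 4. mycb gave -0.54, -0.32, -0.71 and -0.24 and myclb gave -0.30, -0.28, -0.28 and -0.36. Family members outside the rule took mixed signs: myca gave 0.33, -0.08, -0.01 and 0.31, mych gave -0.56, -0.39, -0.13 and 0.39, mycla gave 0.06, -0.24, -0.39 and -0.01, and none passed the test at any time.

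Of the other transcription regulators, id1, an inhibitor of basic helix-loop-helix factors and a target of BMP signalling, gave -0.49, -0.35, -0.40 and -0.25, and no probe set of id2a, id2b, id3 or id4 was called. six2a, a homeobox gene active in craniofacial mesenchyme, gave -0.52, -0.73, -0.68 and -0.21. zeb2a, a zinc-finger repressor of neural crest and mesenchyme, gave -0.24, -0.39, -0.32 and -0.65. cbfb, the partner subunit of the Runx factors of cartilage and bone, gave -0.26, -0.34, -0.57 and -0.28 with overlapping arms at each time, and tfe3a, a regulator of lysosomal genes, gave -0.53, -0.28, -0.23 and -0.46 at a mean level just above the floor.

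**Figure D3:**
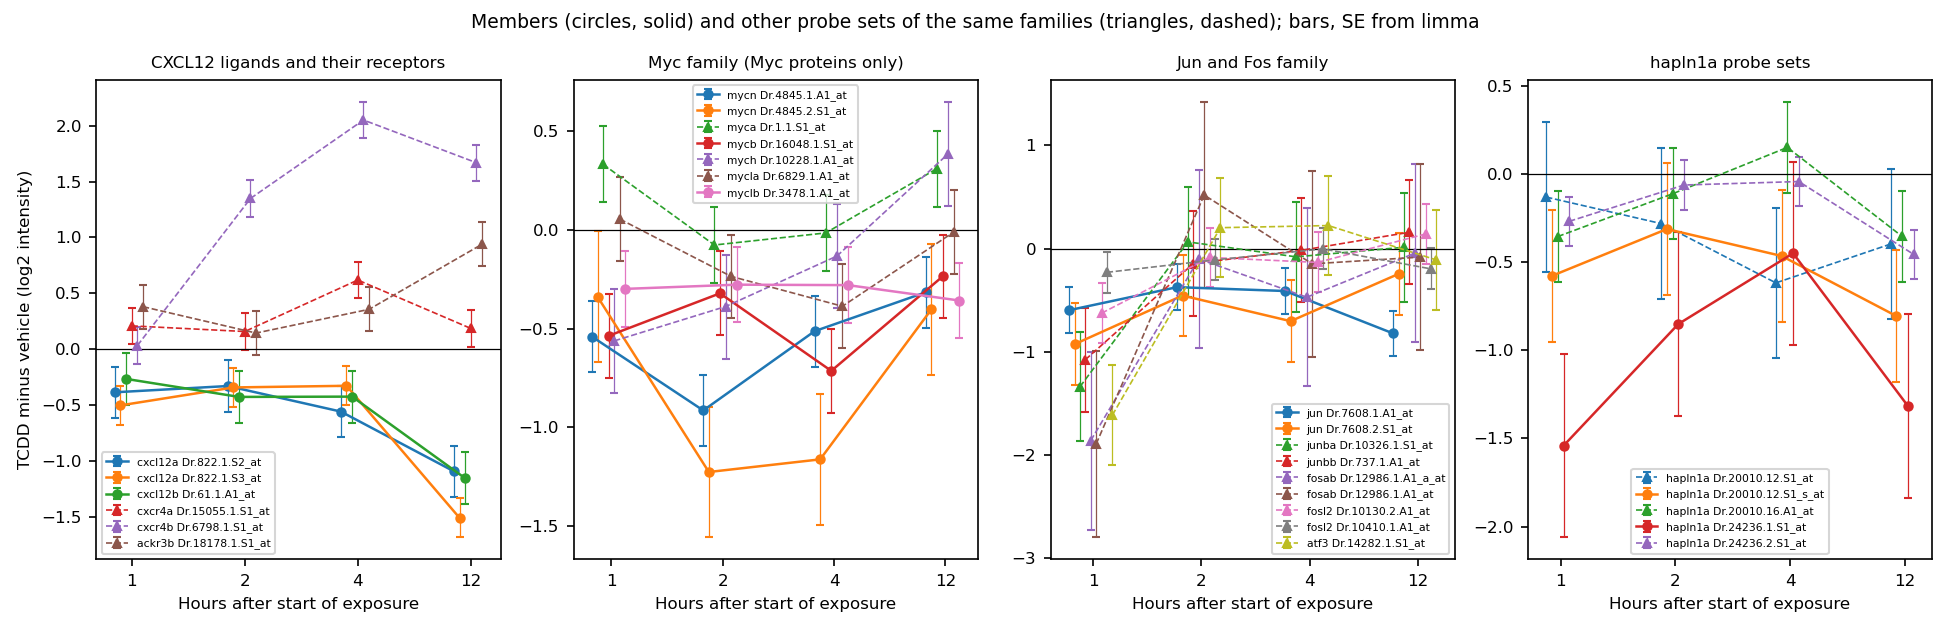
TCDD minus vehicle differences (log2 intensity, vertical axis, bars SE from limma) over the 4 times for members (circles, solid lines) and other probe sets of the same gene families (triangles, dashed lines). The 3 Cxcl12 probe sets fall to between -1.51 and -1.09 at 12 h, while cxcr4b stands at 1.67.

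Cell cycle, chromatin and ribosome assembly supplied 4 members from 3 genes. ccnd1 encodes cyclin D1, which drives entry into the cell cycle, and both of its probe sets were members. The ccnd1 probe set Dr.24753.1.S1_at read 8.37, 8.45 and 8.38 in TCDD jaws at 2 h and 9.34, 9.45 and 9.05 in vehicle jaws. At 12 h this ccnd1 probe set read 7.75, 7.53 and 7.18 in TCDD jaws and 8.73, 8.38 and 8.09 in vehicle jaws. The ccnd1 arms overlapped at 1 h and were apart from 2 h on, with differences of -0.29, -0.88, -0.70 and -0.91 on Dr.24753.1.S1_at and -0.20, -0.67, -0.83 and -0.78 on Dr.24753.1.S2_at. uhrf1, which helps copy DNA methylation at replication, gave -0.34, -0.48, -0.71 and -0.46, with 6.98 ± 0.06 in TCDD jaws and 7.69 ± 0.38 in vehicle jaws at 4 h (SD, n = 3 each). A dimmer uhrf1 probe set, Dr.18169.1.S1_at, was not a member and gave 0.45, -0.26, -0.69 and -0.12, opposite in sign at 1 h. grwd1, a ribosome assembly factor, gave -0.87, -0.48, -0.29 and -0.29 with overlapping arms. In a list of 25 cell cycle genes, of which 22 had probe sets here, 29 probe sets remain when the ccnd1 members are set aside. Of these 29, limma called 3 lower at 4 h (mcm2, mcm3 and mcm5, subunits of the replicative helicase) and none higher. At 1, 2 and 12 h limma called 0 of the 29, with 8, 3 and 8 at an unadjusted p under 0.05 in either direction. Of all 31 probe sets of the list, both ccnd1 members included, 2 stood at -0.2 or lower at 1 h. At 2, 4 and 12 h these were 12, 13 and 21. The median difference of the 29 was 0.28 at 1 h, -0.06 at 2 h, -0.09 at 4 h and -0.35 at 12 h.

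Extracellular matrix genes supplied 6 members from 5 genes. hapln1a encodes the link protein that ties proteoglycans to hyaluronan in cartilage, and its probe set Dr.24236.1.S1_at was the sixth in the order. At 1 h hapln1a read 9.80, 7.19 and 9.66 in TCDD jaws and 10.64, 10.08 and 10.55 in vehicle jaws. At 2 h hapln1a read 9.09, 9.48 and 9.19 in TCDD jaws and 10.23, 10.19 and 9.90 in vehicle jaws. The arms were apart at both times, and at 1 h TCDD replicate 2, the array that stood apart in the dap control, lay far below the other TCDD jaws: the 1 h difference was -1.54 with that array and -0.69 without it. At 4 h hapln1a read 10.09, 9.41 and 8.0 in TCDD jaws and 9.61, 9.39 and 9.85 in vehicle jaws. At 12 h hapln1a read 5.81, 5.18 and 5.37 in TCDD jaws and 6.87, 6.98 and 6.46 in vehicle jaws. The arms overlapped at 4 h, when the difference of -0.45 rested on replicate 3 and was 0.25 without it, and were apart at 12 h. The fold lower was 2.91 at 1 h, 1.80 at 2 h, 1.37 at 4 h and 2.49 at 12 h. The second hapln1a member, Dr.20010.12.S1_s_at, gave -0.58, -0.31, -0.47 and -0.81, and its 1 h value without TCDD replicate 2 was -0.30. Another 3 hapln1a probe sets at measurable levels were not members: Dr.20010.12.S1_at gave -0.13, -0.28, -0.62 and -0.40, Dr.24236.2.S1_at gave -0.27, -0.06, -0.04 and -0.46, and Dr.20010.16.A1_at gave -0.36, -0.11, 0.15 and -0.36.

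The summed cartilage markers given above were also lower in TCDD jaws at 1 h, and their part in the hapln1a difference was not tested. Without the hapln1a members the cartilage list had 18 probe sets, with medians of -0.36, -0.22, 0.05 and -0.07. One of them, for sox9b, was called lower at 4 h and at 12 h, and none was called higher at those times. The rule had set the identifier listed as sox9b aside, so it could not be a member whatever its values. At 1 and 2 h limma called 0 of the 18, with 4 and 2 at an unadjusted p under 0.05 in either direction. The other matrix members were thbs3a, a thrombospondin of cartilage and tendon, with -0.57, -0.78, -0.22 and -0.67, and loxa, which cross-links collagen and elastin, with -0.25, -0.54, -0.31 and -0.43. plod1a, which hydroxylates collagen lysines, gave -0.25, -0.26, -0.23 and -0.54, and hs6st1a, which sulfates heparan sulfate, gave -0.21, -0.39, -0.35 and -0.30.

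Cell surface, adhesion and cytoskeletal proteins supplied 12 members from 12 genes. Of the 12, 5 had non-overlapping arms at 1 h, 4 at 2 h, 3 at 4 h and 9 at 12 h. Among all 69 members, 24, 36, 19 and 34 had non-overlapping arms at these times. The shares of all open probe sets without overlap in this direction were 7.55%, 9.74%, 3.86% and 8.68%. The rule used these contrasts, so nothing is read from the counts of this class. plvapb (Dr.9655.1.A1_at) encodes a protein of the diaphragms of endothelial cells. At 1 h plvapb read 6.20, 6.20 and 5.70 in TCDD jaws and 6.43, 6.75 and 6.62 in vehicle jaws. At 2 h plvapb read 5.71, 5.37 and 5.28 in TCDD jaws and 6.53, 6.35 and 5.57 in vehicle jaws. The arms were apart at 1 h and overlapped at 2 h through vehicle replicate 3. At 4 h plvapb read 5.33, 5.35 and 5.02 in TCDD jaws and 6.90, 6.26 and 6.87 in vehicle jaws. At 12 h plvapb read 4.75, 5.44 and 4.70 in TCDD jaws and 6.12, 6.18 and 5.97 in vehicle jaws. plvapb was 2.72-fold lower at 4 h, where it was the named gene with the lowest difference of that time, and 2.19-fold lower at 12 h, with the arms apart at both. Of the endothelial and thyroid markers, 3 of 8 genes had probe sets. Their summed intensity was 187 to 278 in TCDD jaws and 219 to 252 in vehicle jaws at 4 h, and 118 to 153 in TCDD jaws and 112 to 145 in vehicle jaws at 12 h. At 1 h the sum was 188 to 259 in TCDD jaws and 209 to 215 in vehicle jaws. At 2 h it was 223 to 250 in TCDD jaws and 240 to 322 in vehicle jaws. The sums overlapped at each time. Medians over the 4 probe sets, 2 of them at or above the level floor, were 0.01, -0.07, 0.03 and -0.04. The part of these markers in the plvapb difference was not tested.

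cd248a (Dr.18212.1.S1_at) encodes endosialin, a surface protein of fibroblasts and pericytes in mammals. At 1 h cd248a read 7.83, 7.07 and 7.60 in TCDD jaws and 8.22, 7.87 and 8.02 in vehicle jaws. At 2 h cd248a read 7.13, 6.77 and 6.87 in TCDD jaws and 8.04, 7.84 and 7.46 in vehicle jaws. The arms did not overlap at either early time. At 4 h cd248a read 7.64, 7.78 and 6.80 in TCDD jaws and 8.35, 7.98 and 8.06 in vehicle jaws. At 12 h cd248a read 5.55, 4.96 and 5.60 in TCDD jaws and 6.39, 6.74 and 6.32 in vehicle jaws. Here too the arms were apart, and cd248a was 1.45-fold lower at 1 h, 1.81-fold at 2 h, 1.66-fold at 4 h and 2.17-fold at 12 h.

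vim, the intermediate filament vimentin of mesenchymal cells, and limch1b, a regulator of actomyosin, were lowered mainly at 12 h. vim (Dr.8242.1.A1_at) read 6.95, 6.34 and 7.99 in TCDD jaws and 8.59, 8.01 and 8.37 in vehicle jaws at 12 h, a difference of -1.23 after -0.44, -0.41 and -0.33. limch1b (Dr.17294.1.A1_at) read 4.55, 4.19 and 4.53 in TCDD jaws and 6.45, 5.38 and 5.76 in vehicle jaws at 12 h, a difference of -1.44 after -0.20, -0.39 and -0.32. A second limch1b probe set, Dr.10986.1.A1_at, was not a member and gave -0.22, -0.16, 0.11 and -1.02. tppp3, a microtubule-binding protein of tendon sheath cells in mice, gave -0.76, -0.28, -0.29 and -1.21, lowest at 12 h but with a larger difference at 1 h than at 2 and 4 h. cldn11a, a tight junction protein, gave -0.37, -0.34, -0.80 and -0.70. pafah1b1a, the dynein regulator Lis1, gave -1.02, -0.78, -0.38 and -0.36, but its TCDD arrays at 1 h spread widely (6.27 ± 1.38, against 7.29 ± 0.38 in vehicle jaws, SD, n = 3 each) and its 4 h value was 0.02 without replicate 3. The lowest TCDD array of pafah1b1a at 1 h, at 4.70, was the one that stood apart in the dap control. Another pafah1b1a probe set, Dr.16144.1.A1_at, was not a member and gave 0.38, -0.17, -0.48 and 0.27, opposite in sign at 1 and 12 h. pcdh18a and pcdh19 are protocadherins, adhesion proteins that gave -0.32, -0.80, -0.20 and -0.32 and -0.35, -0.40, -0.25 and -0.36 at the 4 times. The cytoskeletal members wdr1, an actin disassembly factor, lpp, a focal adhesion protein, and dspa, a desmoplakin of desmosomes, kept between -0.60 and -0.20 at every time.

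Metabolic enzymes supplied 7 members from 7 genes, with the first and the eighth of the order among them. hsd11b2 (Dr.12359.1.A1_at), which inactivates cortisol, had the lowest value of the rule's ranking measure: the mildest of its 4 differences was -0.70. At 1 h hsd11b2 read 5.41, 5.31 and 5.97 in TCDD jaws and 7.29, 6.61 and 5.99 in vehicle jaws. At 2 h hsd11b2 read 6.23, 5.82 and 6.33 in TCDD jaws and 6.69, 6.92 and 6.88 in vehicle jaws. The arms were apart at both times, by hundredths at 1 h, where vehicle replicate 3 came close to TCDD replicate 3. At 4 h hsd11b2 read 4.79, 5.03 and 4.62 in TCDD jaws and 5.52, 5.07 and 6.06 in vehicle jaws. At 12 h hsd11b2 read 4.00, 4.23 and 3.85 in TCDD jaws and 4.97, 5.05 and 5.72 in vehicle jaws. hsd11b2 was 2.10-fold lower at 1 h, 1.62-fold at 2 h, 1.67-fold at 4 h and 2.33-fold at 12 h, with no overlap at any time, again by hundredths at 4 h.

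lpla (Dr.20185.1.S1_at), listed as a lipoprotein lipase, which frees fatty acids from circulating lipoproteins, had a later separation. At 1 h lpla read 6.71, 5.70 and 5.73 in TCDD jaws and 6.47, 6.53 and 6.67 in vehicle jaws. At 2 h lpla read 7.36, 7.15 and 6.99 in TCDD jaws and 7.91, 7.31 and 7.43 in vehicle jaws. At both early times one TCDD array lay within or above the vehicle values. At 4 h lpla read 6.08, 6.57 and 6.39 in TCDD jaws and 6.97, 6.58 and 6.96 in vehicle jaws. At 12 h lpla read 4.89, 4.59 and 5.21 in TCDD jaws and 5.61, 5.58 and 5.64 in vehicle jaws. No overlap was left at the later times, and the fold lower was 1.42, 1.31, 1.41 and 1.64 over the 4 times. elovl6l, a fatty acid elongase, gave -0.55, -0.52, -0.36 and -0.46 with overlapping arms throughout, and chka, a choline kinase, gave -0.25, -0.40, -0.42 and -0.38. fpgs, which retains folates in cells, gave -0.24, -0.26, -0.43 and -0.26, and abat, which breaks down GABA, gave -0.44, -0.64, -0.58 and -0.20. bhmt, a homocysteine methyltransferase, gave -0.37, -0.21, -0.38 and -0.47. The brighter bhmt probe set, Dr.2596.1.S1_a_at, was not a member and gave -0.04, 0.14, -0.02 and -1.24.

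The last named members have scattered roles. ywhaqb, a 14-3-3 adaptor protein, gave -0.94, -0.72, -0.35 and -0.50, but its 4 h value was 0.27 without replicate 3. At 1 h ywhaqb averaged 9.46 ± 1.23 in TCDD jaws and 10.40 ± 0.06 in vehicle jaws (SD, n = 3 each). The lowest of these TCDD arrays, at 8.14, was the one that stood apart in the dap control. The brighter ywhaqb probe set, Dr.1068.1.S2_at, was not a member and gave 0.02, -0.27, -0.33 and 0.09. oxsr1a, a stress-activated kinase, gave -0.24, -0.62, -0.36 and -0.28. syt1a, a calcium sensor of synaptic vesicles, was last in the order: it read 6.21, 6.75 and 7.18 in TCDD jaws and 7.64, 8.90 and 7.58 in vehicle jaws at 2 h, a difference of -1.33, but gave -0.21, -0.36 and -0.20 at the other times with overlapping arms. The brighter syt1a probe set, Dr.11127.1.A1_at, was not a member and gave 0.42, -0.63, -0.66 and -0.04. Brain and nerve markers, with 17 probe sets for 12 of 15 genes, had medians of 0.14, -0.29, -0.41 and 0.14 at the 4 times, and 2, 11, 12 and 1 of the 17 stood at -0.2 or lower. Their summed intensity was 7204 to 8555 in TCDD jaws and 8029 to 11664 in vehicle jaws at 2 h, and 3765 to 4813 in TCDD jaws and 4654 to 7131 in vehicle jaws at 4 h. At 1 h it was 4516 to 7960 in TCDD jaws and 5451 to 5956 in vehicle jaws, and at 12 h 2310 to 3938 in TCDD jaws and 2047 to 3243 in vehicle jaws. The sums overlapped at each time, and the part of these markers in the syt1a difference was not tested. zgc:77614 gave -0.39, -0.24, -0.22 and -0.50.

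The 16 members with no gene listed include the second and seventh of the order. Dr.14064.1.S1_at read 8.06, 7.11 and 8.12 in TCDD jaws and 8.73, 8.41 and 8.32 in vehicle jaws at 1 h. At 2 h Dr.14064.1.S1_at read 7.58, 8.05 and 7.57 in TCDD jaws and 9.05, 8.70 and 8.51 in vehicle jaws. The arms were apart at both times. At 4 h Dr.14064.1.S1_at read 7.86, 7.18 and 6.87 in TCDD jaws and 8.04, 7.68 and 8.19 in vehicle jaws. At 12 h Dr.14064.1.S1_at read 5.36, 5.38 and 5.23 in TCDD jaws and 6.92, 6.66 and 6.06 in vehicle jaws. TCDD replicate 1 overlapped vehicle at 4 h, and the 12 h groups stood well apart, at 2.34-fold lower, after 1.65-fold, 2.02-fold and 1.59-fold.

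Dr.26261.1.A1_s_at read 6.34, 7.02 and 6.93 in TCDD jaws and 6.87, 7.30 and 7.38 in vehicle jaws at 1 h. At 2 h Dr.26261.1.A1_s_at read 6.09, 6.06 and 6.39 in TCDD jaws and 6.63, 7.33 and 6.31 in vehicle jaws. One array broke the separation at each of these times. At 4 h Dr.26261.1.A1_s_at read 6.79, 6.32 and 6.64 in TCDD jaws and 7.48, 7.07 and 7.45 in vehicle jaws. At 12 h Dr.26261.1.A1_s_at read 5.46, 5.59 and 5.08 in TCDD jaws and 5.92, 6.18 and 5.83 in vehicle jaws. The later groups did not overlap, and the fold lower was 1.34, 1.49, 1.68 and 1.52.

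**Figure D4:**
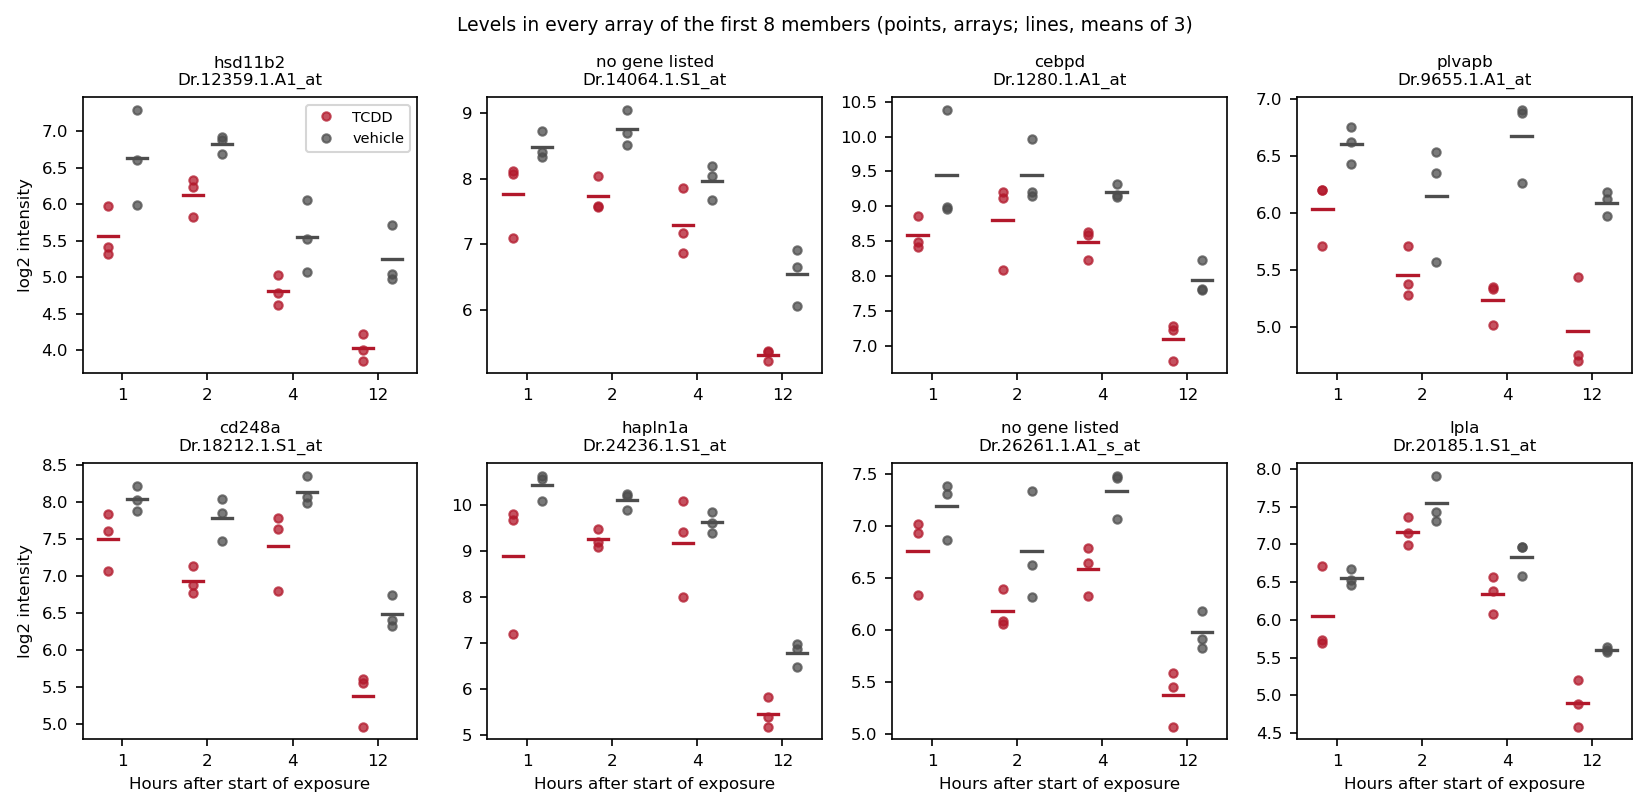
Log2 intensity (vertical axis) in every array of the first 8 members in the order of the rule, at 1, 2, 4 and 12 h, with TCDD jaws left of vehicle jaws and lines at the means of 3. hsd11b2 and cd248a have no overlap at any time, and hapln1a shows one TCDD array at 7.19 at 1 h and one at 8.0 at 4 h.

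Other unnamed members were led by single times. Dr.10124.1.A1_at gave -1.32 at 1 h and -0.32, -0.32 and -0.57 later, and Dr.2418.1.A1_at gave -1.29 at 1 h and -0.35, -0.48 and -0.48 later. The arms of Dr.2418.1.A1_at overlapped at every time. Its 1 h arrays spread widely, at 5.24 ± 1.82 in TCDD jaws and 6.52 ± 0.89 in vehicle jaws (SD, n = 3 each). The lowest of these TCDD arrays, at 3.38, was the one that stood apart in the dap control, so the 1 h difference rested largely on it. Dr.16737.1.S1_at had the lowest difference at 4 h, -1.51, but its vehicle arrays spread widely there (3.62 ± 0.32 in TCDD jaws, against 5.13 ± 1.24 in vehicle jaws, SD, n = 3 each), its arms overlapped at every time, and its 1 h value was 0.61 without replicate 1. Dr.25095.1.A1_at gave -1.40 at 12 h, with 4.63 ± 0.43 in TCDD jaws and 6.04 ± 0.24 in vehicle jaws (SD, n = 3 each), after -0.34, -0.75 and -0.23. Dr.12778.1.S1_at was even over the course, with -0.34, -0.46, -0.34 and -0.42, and Dr.24775.2.A1_at gave -0.33, -0.56, -0.39 and -0.41 with overlapping arms. The remaining 8 gave differences between -0.96 and -0.20 at every time.

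Genes with several probe sets give a view of transcripts that the rule did not choose. For 15 of the named genes the array carried 22 further probe sets that were not members, 12 of them at or above the level floor. Of the 22, 18 read below 0 at 1 h, 18 at 2 h, 16 at 4 h and 19 at 12 h, and 8 at all 4 times. Over all tested probe sets 53.2% read below 0 at 1 h, 43.2% at 2 h, 52.4% at 4 h and 64.2% at 12 h, and 6.93% at all 4 times. The 8 were 3 of fpgs, 2 of hapln1a and 1 each of cebpd, chka and dspa. Of these 8, 3 were at or above the level floor, and the count of 8 was 4 without replicate 2 and 4 without replicate 3. The sizes were small, with medians of -0.06, -0.04, -0.04 and -0.09 over the 22 probe sets. Only bhmt on Dr.2596.1.S1_a_at passed the test, at -1.24 at 12 h (limma adjusted p 0.0301), after -0.04, 0.14 and -0.02. This call was lost in 5 of the 11 refits (adjusted p from 0.0171 to 0.544). None was called higher at any time. These probe sets were measured on the same arrays, and some probe sets of a gene can share target sequence.

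The rule was also run on 2 of the 3 replicate numbers, and the differences were then read in the arrays of the number left out. These read-outs were not used by that choice, although all arrays of a time appear to have been scaled together. Chosen without replicate 1, 94 probe sets qualified, and in replicate 1 their share below 0 was 86.2% at 1 h, 86.2% at 2 h, 36.2% at 4 h and 84.0% at 12 h. The open probe sets gave 42.6%, 57.2%, 56.0% and 54.2% in the same arrays. Chosen without replicate 2, 62 qualified, with 67.7%, 71.0%, 64.5% and 80.6% below 0 in replicate 2, against 41.7%, 47.9%, 52.9% and 49.0% of the open ones. Chosen without replicate 3, 68 qualified, with 60.3%, 58.8%, 75.0% and 60.3% below 0 in replicate 3, against 50.7%, 56.4%, 41.6% and 52.7%. The held-out share was above that of the open probe sets in 11 of 12 cases, and below it in replicate 1 at 4 h, where the median difference was 0.36. Each case rests on 1 TCDD and 1 vehicle array, so its probe sets are not independent. Of the 94, 62 and 68 chosen probe sets, 34, 30 and 29 were among the 69 members. The shares are thus not those of the members.

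Fewer held at every time. In the arrays left out, 19 of the 94, 16 of the 62 and 17 of the 68 probe sets were below 0 at all 4 times, which is between 20.2% and 25.8%, beside 6.59%, 5.71% and 6.29% of the open probe sets. The median over probe sets of the mean difference shrank to -0.28, -0.36 and -0.12 in the left-out replicate, beside -0.55, -0.52 and -0.48 in the replicates that chose them. Only 9 of the 69 members qualified under all 3 choices: hsd11b2, cebpd, plvapb, cd248a, lpla, the mycn probe set Dr.4845.1.A1_at, the cxcl12a probe set Dr.822.1.S2_at, and the unnamed Dr.14064.1.S1_at and Dr.26261.1.A1_s_at. Another 18 qualified under 2 of the choices, 30 under 1 and 12 under none. These shares are given as descriptions and were not tested.

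**Figure D5:**
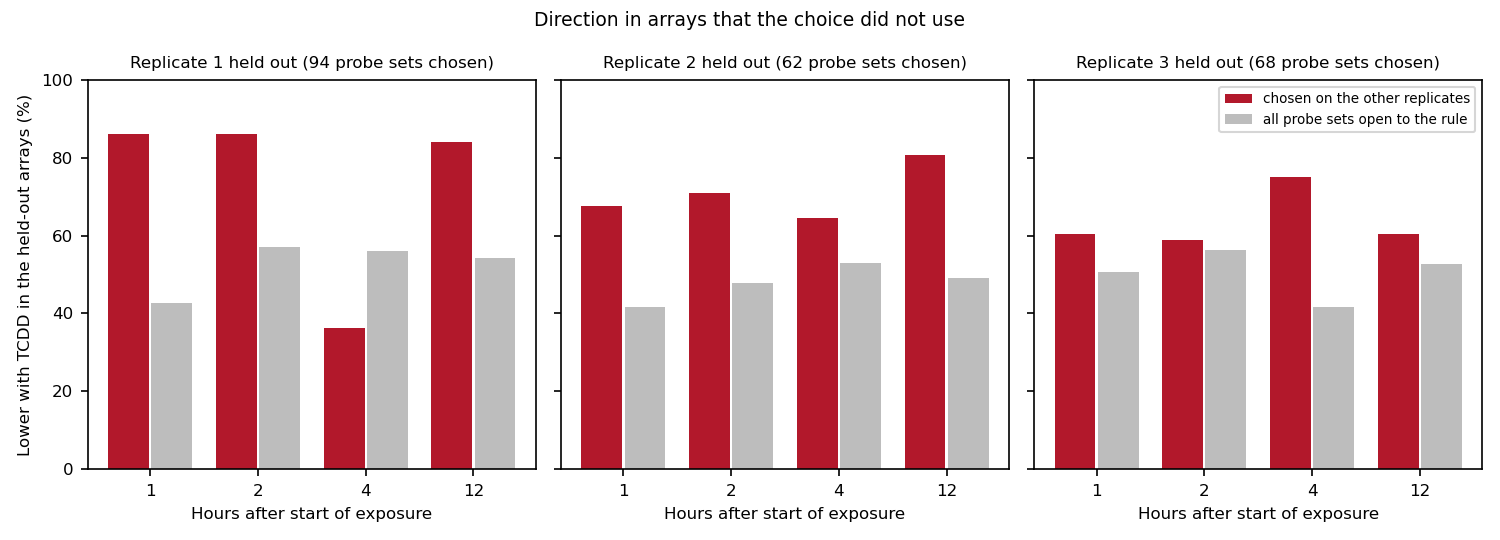
Percent of probe sets (vertical axis, from 0) lower in TCDD than in vehicle jaws in the replicate left out, for probe sets chosen on the other replicates (left bar of each pair) and for all open probe sets (right bar), at 1, 2, 4 and 12 h. The chosen bar is the higher one everywhere but in replicate 1 at 4 h, at 36.2% against 56.0%.

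Membership was sensitive to single arrays. With each of the 24 arrays left out in turn the rule found between 58 members, without TCDD replicate 2 at 4 h, and 113, without TCDD replicate 1 at 4 h. The 113 held 67 of the 69. Only 9 members qualified in all 24 runs, and the median member in 21. Single differences were checked for 36 members, some with no gene listed, chosen as stated under how the data were processed. Other members with values above, such as cxcl12b, tppp3, mycb and myclb, were not in this check. Of the 144 differences of the 36, 76 moved by over 1.5 times or changed sign when 1 array of the time was left out. By time these were 27 of 36 at 1 h, 14 at 2 h, 22 at 4 h and 13 at 12 h. Of the 144, 11 changed sign. For the arrays that stood apart in the dap control the values were as follows. Without TCDD replicate 2 at 1 h, the median difference of the members at 1 h was -0.35 and 53 of the 69 kept a 1 h difference of -0.2 or lower, and without TCDD replicate 3 at 12 h the median at 12 h was -0.49 and 63 of the 69 did. The number of members called lower at 12 h was 4 without that array, against 11.

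At the edge of the rule the values ran together. The 5 members just inside had largest differences of -0.203 (pcdh18a), -0.202 (cdon, limch1b and abat) and -0.201 (syt1a). The 5 probe sets just outside had -0.198 (rhpn2), -0.195 (nucks1a and foxd3), -0.192 (mapk3) and -0.191 (zgc:158345).

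A last set of values concerns vehicle jaws alone, which the rule set against TCDD but not against each other. After all arrays were brought to one distribution, 58 of the 69 members were lower in vehicle jaws at 2 h than at 1 h, 51 at 4 h and 54 at 12 h. Among the open probe sets the share that was lower lay between 48.3% and 50.5%. The members' median change from 1 h was -0.42, -0.32 and -0.61 at these times. An F-test of limma between the times within vehicle gave 45 of the 69 members an adjusted p under 0.05 on this scale, against 78.2% of all tested probe sets. As deposited, on scales that differ between times, the F-test passed 62 members and 78.6% of all tested. Vehicle arrays entered the choice of the members as the subtrahend, so a member's vehicle level at any of the 4 times is not independent of the rule. The dap control also differed between times. It was -0.83 to -0.62 on the vehicle arrays of 1 h and -3.39 to -3.13 on those of 12 h. Its part in these changes was not tested.

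Of 11 gene lists, 5 held members. The cartilage list held hapln1a with 2 of 20 probe sets, and the cell cycle list held ccnd1 with 2 of 31. The stress list held jun with 2 of 30, the immune list nfkbiaa with 1 of 12. The lipid list held lpla with 1 of 22. Members made up 0.786% of all open probe sets, and the list shares were not tested against it. On the stress list 1 probe set was called lower at 4 h (prdx1, a peroxiredoxin), 1 higher at 4 h (dnajb1b, a heat shock co-chaperone) and 1 higher at 12 h (hsp90aa1.2, a chaperone). The immune list had no lower call. Its higher calls were cxcr4b at 2, 4 and 12 h and, at 4 and 12 h, a probe set annotated as mpx. The mpx probe set carries 1 of the 2 identifiers that the rule had set aside, listed as cyp1a and sox9b. Which transcript it measures was not tested. Without lpla, limma called 0 of the 21 probe sets of the lipid list at any time. At an unadjusted p under 0.05, in either direction, there were 2, 1, 0 and 2 at 1, 2, 4 and 12 h. No gene of the aryl hydrocarbon receptor list was a member, though probe sets listed as cyp1a could not be, since the rule had set them aside. That list had no lower call and 2, 2, 4 and 5 higher calls among its 13 probe sets at 1, 2, 4 and 12 h. Higher calls made up 0.103%, 0.0839%, 0.323% and 0.387% of all tested probe sets at these times. The lists of bone, muscle, circadian clock, other matrix and jaw signalling genes held no member.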

How the data were processed

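Per the deposited table, the authors' values are linear intensities, 1 per probe set and array. Per the submitters' processing notes RMA and GCRMA were used by the authors, in a role and order not given in the sources used here. Array medians were nearly equal within a time and differed between times. Samples were grouped by their labels into 8 groups of 3 arrays.

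Intensities were converted to log2 without an offset. Leaving aside 115 controls, 15502 probe sets were fitted in R 4.3.3 with limma 3.58.1 (8 group means over all 24 arrays, contrasts of TCDD minus vehicle at each time, eBayes, Benjamini-Hochberg adjustment over all 15502, adjusted p under 0.05). The script was tested on simulated data. The rule and counts were run in Python 3.11.15 with pandas 2.3.3. The members, gene lists, gene families and roles were chosen with earlier results of these data known.

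Gene names came from the platform annotation, with symbols updated through the RefSeq table: 10795 of the tested probe sets had 1 gene, of which 10711 matched that table, 135 had several and 4572 had none. Values are given for the first 25 members in the order of the rule, the 3 lowest at each time, genes with several members, members on a list, and the 5 probe sets on either side of the threshold. The members among these came to 36, and the checks of members' single differences covered only them. Other members are given by role, and relatives of members were chosen after their values were seen. Values in every array are given for the first 8, and for further members picked after their values were seen.

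Same-numbered TCDD and vehicle arrays showed correlations of their deviations from the group means between -0.46 and 0.25 over 12 pairs, and no source ties a number to a shared batch, so numbers were not treated as pairs. Alternatives were a log2 offset of 16, joint quantile normalization, centring, medians in place of means, other thresholds and floors, a trend in eBayes, the replicate block, separate fits of the 6 arrays per time, and leaving out a replicate number. Leaving out single arrays, counting the lists without their members, reading the differences in a held-out replicate, and the refits of probe sets that are no members were added after seeing the data. No sequence is shown.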

Additional observations from a re-analysis of the deposited data

How the results depend on the processing

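With 3 arrays a group, the number of arrays limits every value, and dim probe sets near the level floor vary most. The number of members was 33 with a log2 offset of 16, all of them among the 69, 25 at a threshold of -0.3, 75 after joint quantile normalization (62 shared), 57 with differences centred on their median (56 shared), 61 with a floor of 5 and 62 with medians in place of means (30 shared). It ran from 58 (without TCDD replicate 2 at 4 h) to 113 (without TCDD replicate 1 at 4 h) when arrays or replicate numbers were left out. The offset shrinks differences of dim probe sets by its construction, and the cause of the other changes was not tested.

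Members called lower by limma with arrays left out numbered 0 to 1 at 1 h, 0 to 1 at 2 h, 0 to 3 at 4 h and 1 to 11 at 12 h. Without replicate 1, 2 or 3 the count at 12 h was 1 to 2, and without TCDD replicate 3 at 12 h it was 4. The 6 arrays of a time alone gave 0 at 1, 2, 4 and 12 h, with fewer arrays to estimate the spread. The replicate block gave 2 at 2 h and 13 at 12 h, and 65 in place of 62 members whose vehicle level differed between times. Joint quantile normalization gave 1 at 4 h, 12 at 12 h and 45 in the vehicle test, and the offset gave 4 at 12 h. Median differences of members stayed below 0 in each run. Other probe sets of the members' genes below 0 at all 4 times numbered 4 to 6 without a replicate number, against 8.

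Of 144 differences of the 36 members checked singly, none changed sign under quantile normalization or the offset. The other members were not checked in this way. Leaving out replicate numbers turned 12 of the 144, and these ranged as follows. At 4 h hapln1a on Dr.24236.1.S1_at ran from -0.92 to 0.25, pafah1b1a from -0.90 to 0.019, ywhaqb from -1.15 to 0.27, Dr.24775.2.A1_at from -1.03 to 0.11, Dr.10124.1.A1_at from -1.19 to 0.22, and jun on Dr.7608.2.S1_at from -1.48 to 0.022. At 1 h Dr.16737.1.S1_at ran from -0.96 to 0.61 and ccnd1 on Dr.24753.1.S2_at from -0.42 to 0.027. dkk2 at 12 h ran from -0.51 to 0.11. syt1a ran from -0.72 to 0.16 at 1 h, from -0.83 to 0.12 at 4 h and from -0.65 to 0.49 at 12 h.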
